A study of Mus musculus with 8 samples.

Results

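The regions described here are the CpG-richest 10% of the regions on a mouse CpG island array. Probes on chromosomes 1 to 19 whose starts lay up to 500 bp apart were joined into regions, and regions of 3 or more probes were ranked by the mean number of CG dinucleotides per probe base. The highest 10% are 1345 of 13444 regions (8142 of 83154 probes), and no measured binding value entered that choice. The study examined demethylation of CpG islands in embryonic stem (ES) cells by methylated DNA immunoprecipitation (mDIP), in which an antibody against 5-methylcytidine pulls methylated DNA out of denatured, sonicated genomic DNA. Bound DNA (Cy5) and the input DNA set aside before the pull-down (Cy3) of each sample were hybridised together to 1 array. The 8 arrays are 8 groups of 1 array each: aid-/- ES cells, mbd4-/- ES cells, ES cells with a Gadd45a knockdown, wild-type ES cells, and 4 tissue samples from C57BL6/J mice aged 6 months (aid-/- liver, mbd4-/- liver, aid-/- spleen and mbd4-/- spleen). Aid is a cytidine deaminase, Mbd4 a DNA glycosylase that removes mismatched thymine, and Gadd45a a DNA damage response protein; all 3 have been studied as parts of demethylation pathways. Every liver and spleen sample carries 1 of the 2 deletions, and the labels do not give how the knockdown was made or how many ES clones or mice went into an array.

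CpG dinucleotides are rare in most of the mouse genome, because methylated cytosine is prone to deamination to thymine, and they persist in CpG islands, many of which hold gene starts. Islands at active or poised promoters are mostly free of methylation in ES cells and adult tissues. Known exceptions are promoters of germline genes, which are methylated in somatic cells, imprinted control regions, which are methylated on 1 parental allele, and islands inside gene bodies. An antibody against methylated cytosine binds a fragment with many methylated CpGs most strongly, so a methylated CpG-rich region gives a high mDIP ratio and an unmethylated one a low ratio.

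To show how dense these sequences are, the probe with the most CG dinucleotides (in capitals) among those with a value on all arrays follows for 14 members that the results turn on, in build mm9 and with the letters 5′ to 3′ as the scanner files give them. The first pair belongs to the members with the most CG per base. The next set was strongly bound on most arrays, Grb10 and Cux1 differed between ES lines, Sh2d3c and Snx20 between ES cells and tissues, and the last ones were weakly bound or differed between ES lines.
Pom121 (chr5:135870481-135870528): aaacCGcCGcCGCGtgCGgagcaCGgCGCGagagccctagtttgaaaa
Tbc1d12 (chr19:38911774-38911818): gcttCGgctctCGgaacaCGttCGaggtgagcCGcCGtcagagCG
Dazl (chr17:50432887-50432931): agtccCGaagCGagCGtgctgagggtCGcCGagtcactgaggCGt
Tex12 (chr9:50369450-50369494): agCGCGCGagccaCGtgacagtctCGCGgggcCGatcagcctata
Ddx4 (chr13:113442566-113442610): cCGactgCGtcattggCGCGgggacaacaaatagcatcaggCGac
Naa11 (chr5:97820982-97821026): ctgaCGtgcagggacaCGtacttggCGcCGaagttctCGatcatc
Grb10 (chr11:11925663-11925707): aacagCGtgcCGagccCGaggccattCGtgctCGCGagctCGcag
Cux1 (chr5:136750787-136750831): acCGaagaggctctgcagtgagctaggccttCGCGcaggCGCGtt
Sh2d3c (chr2:32596973-32597017): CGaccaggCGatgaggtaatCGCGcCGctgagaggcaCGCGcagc
Snx20 (chr8:91151286-91151330): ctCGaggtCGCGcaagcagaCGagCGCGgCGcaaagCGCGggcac
Ubb (chr11:62364572-62364616): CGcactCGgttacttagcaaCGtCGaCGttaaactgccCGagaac
Cdca5 (chr19:6084791-6084835): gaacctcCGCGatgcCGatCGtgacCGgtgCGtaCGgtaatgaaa
Fndc3b (chr3:27609962-27610006): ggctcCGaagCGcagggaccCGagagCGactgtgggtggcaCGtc
Naa40 (chr19:7315742-7315786): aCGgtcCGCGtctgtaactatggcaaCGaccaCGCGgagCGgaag
The Tex12 probe, from a member bound strongly on every array, and the Cdca5 probe, from a member bound strongly on none, both hold 7 CG in 45 bases. The Snx20 probe holds 9 and the Ddx4 and Naa11 probes 5.

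The members had a median of 8.15 CG per 100 bases (range 7.45 to 13.7), against 5.05 in the other regions. Their median GC content was 60.3%, against 55.4%, and their median ratio of observed over expected CpG was 0.936, against 0.672. At the limit, Dll3 (7.4501 CG per 100 bases), BC013529 (7.4510) and Kif20b (7.4521) lay just inside and Whsc2 (7.4495), Sp3 (7.4454) and Myl12b (7.4444) just outside. Mean levels over the 8 arrays were 0.89 for Dll3, 0.11 for BC013529 and −0.75 for Kif20b, and −0.85 for Whsc2, −0.21 for Sp3 and −0.48 for Myl12b. The most CG per base were held by Pom121 (13.7 per 100 bases, a nucleoporin), Tbc1d12 (13.3) and Jmjd1c (13.3), then by Siglec15 (12.8) on chromosome 18 and by a region at BC048602 (12.6, chromosome 15, 35256346 to 35256558). The mean levels of these 5 over the 8 arrays ran from −0.40 (Tbc1d12) to 0.91 (BC048602).

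Of the members, 1287 carry a gene name from the array design and 1279 match a current or older RefSeq symbol. A probe matched the promoter window of a RefSeq gene (250 bases before to 50 after the start, GRCm38) in 58.7% of members (790) and in 52.8% of the other regions. The letters CGCG occurred in a probe of 88.6% of members against 54.0% of other regions. The GC box GGGCGG, read on both strands, occurred in 27.7% against 19.3%, and the HpaII site CCGG in 82.6% against 67.9%. These sequence counts follow in part from the choice by CG content. Members made up between 6.61% (chromosome 14) and 12.8% (chromosome 10) of the regions of a chromosome.

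Each region has a level on each array, the mean over its probes of log2(bound/input) after subtraction of the array's median. The upper end differed between arrays: the plateau, the 98th percentile of all regions, was 4.33 in aid-/-, 4.31 in mbd4-/-, 2.89 in Gadd45a knockdown and 3.36 in wild-type ES cells, 2.22 in aid-/- and 4.01 in mbd4-/- liver, and 2.23 in aid-/- and 3.61 in mbd4-/- spleen. A region at or above 50% of its array's plateau is called strongly bound here. Bound signal was well above background for 69.4% (ES aid-/-) to 94.1% (mbd4-/- liver) of member probes and 64.9% to 92.2% of other probes. The probe log ratio correlated with probe GC content at −0.18 in ES aid-/-, 0.27 in ES mbd4-/-, 0.45 in the Gadd45a knockdown and 0.25 in wild type, and at −0.10 to 0.26 in the tissues. Arrays were scanned on 4 days, with all aid-/- arrays and ES wild type on 1 day and the mbd4-/- and knockdown arrays on the other 3, so scan day cannot be told apart from genotype between aid-/- and mbd4-/- or between wild type and either the mbd4-/- or the knockdown ES cells. ES aid-/- and wild type share a day but not a slide. No slide held more than 1 ES array, so slide cannot be told apart from genotype among the ES lines. The image software version of the mbd4-/- and knockdown ES arrays also differed from that of wild type. Each array averages over the DNA of many cells, so methylation in fewer cells and fewer methylated CpGs per molecule cannot be told apart. With 1 array a group, the number of arrays limits the precision.

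The CpG-richest regions were seldom strongly bound on any array. Strongly bound were 22 members (1.64%) in aid-/-, 30 (2.23%) in mbd4-/-, 49 (3.64%) in Gadd45a knockdown and 13 (0.967%) in wild-type ES cells. In liver the numbers were 42 (3.12%) in aid-/- and 38 (2.83%) in mbd4-/-, and in spleen 49 (3.64%) in aid-/- and 39 (2.90%) in mbd4-/-. The other regions were strongly bound in 7.08% (Gadd45a knockdown) to 10.89% (aid-/- spleen). The member share was lower on all 8 arrays, by a mean of 6.55 ± 1.31 percentage points (SD, n = 8 arrays; difference −6.55), with a two-sided exact permutation p of 0.0078, the smallest that sign changes over 8 arrays can give. The comparison was added after the values were seen. With regions of 5 or more probes alone the difference was −2.87 points, lower on average over the arrays and again with p = 0.0078 by the exact permutation test.

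The share was highest at the CpG-poor end and low at the CpG-rich end, without falling at every step. The poorest 10% was strongly bound in 16.6% (Gadd45a knockdown) to 22.9% (aid-/- spleen) of its regions, and the 10% next below the richest in 2.16% (ES wild type) to 5.06% (aid-/- spleen). The richest 10% lay below that next group on all 8 arrays, but above the group below it in the Gadd45a knockdown (3.64% against 2.68%) and in mbd4-/- spleen (2.90% against 2.83%).

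**Figure D1:**
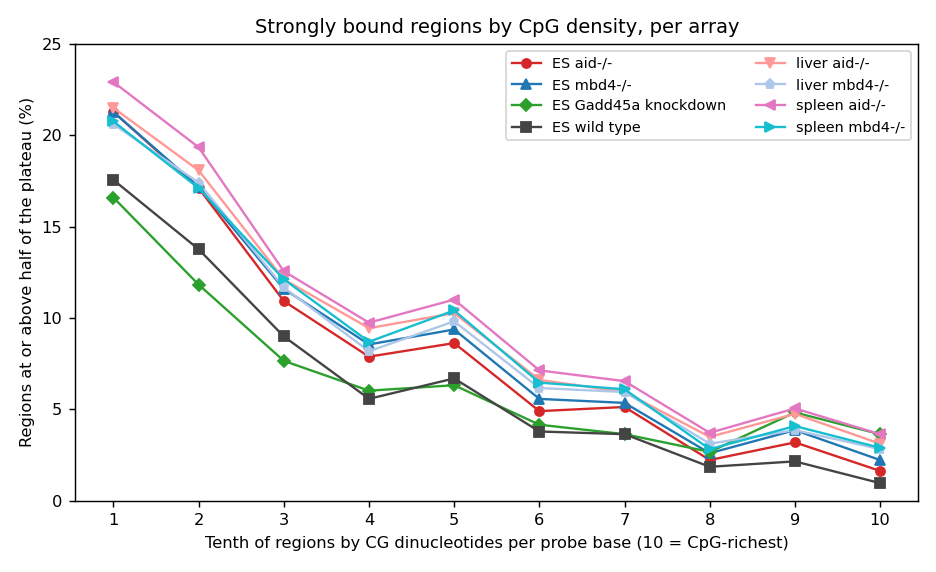
The share of regions at or above 50% of the array's plateau (vertical axis, %) for each group of 10% of regions by CG dinucleotides per probe base (horizontal axis, with 10 the CpG-richest), with 1 line per array. All 8 lines are highest at the left, at 16.6% to 22.9%, and end between 0.967% and 3.64% at the right, with small rises on the way.

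The typical level did not separate the CpG-richest regions from the rest in one direction. Member medians were −0.46 in aid-/-, −0.13 in mbd4-/-, 0.11 in Gadd45a knockdown and −0.18 in wild-type ES cells, against −0.13, −0.19, −0.05 and −0.15 for the other regions of the same arrays. In liver they were −0.16 (aid-/-) and −0.03 (mbd4-/-) against −0.01 and −0.15, and in spleen −0.22 and −0.10 against −0.05 and −0.10. The difference of medians was below 0 on 5 of 8 arrays, with a mean of −0.044 ± 0.162 (SD, n = 8) and a two-sided exact permutation p of 0.461. With a correction for probe GC content the mean difference was −0.17 (p = 0.0078), and on the deposited value scale −0.10 (p = 0.0156), both by the same exact permutation test.

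**Figure D2:**
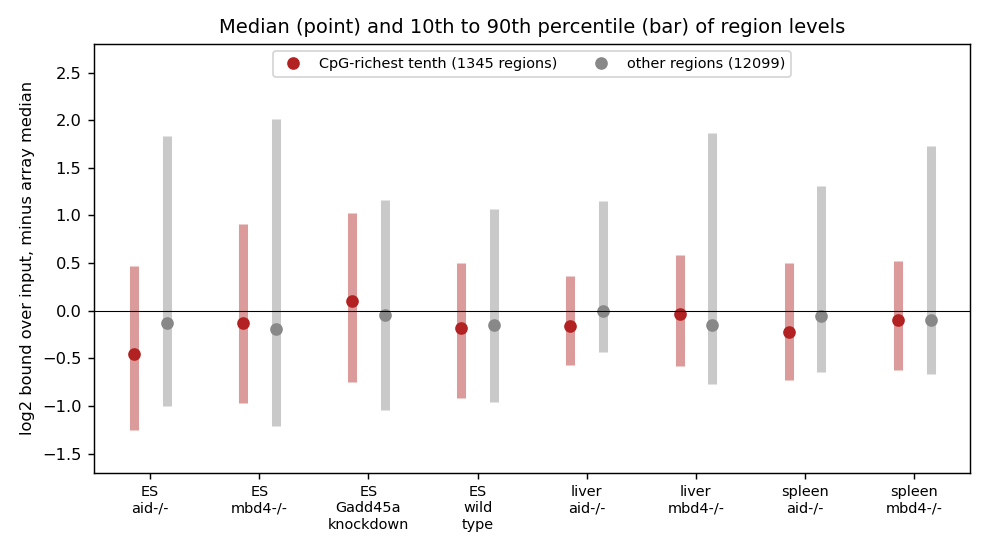
Levels (log2 bound over input minus the array's median) of the 1345 CpG-richest regions and of the 12099 other regions on each array, with the median as a point and the 10th to 90th percentile as a bar. The upper end of the bar is lower for the CpG-richest regions on all 8 arrays, for example 0.47 against 1.84 in ES aid-/-, while the medians lie close together.

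The same comparison was made for regions with and without a promoter probe, also after the values were seen. Among regions with a probe in a promoter window, the share strongly bound was 0.633% of members against 1.35% of others in aid-/- ES cells, 3.29% against 2.79% in the Gadd45a knockdown, 0.633% against 0.939% in wild type and 1.65% against 1.80% in aid-/- liver. The mean difference over the 8 arrays was −0.227 ± 0.370 points (SD, n = 8), with p = 0.125 by the two-sided exact permutation test. Without the Gadd45a array, the one array where the member share was higher, it was −0.332 points with p = 0.0156, and with the GC correction −0.423 with p = 0.0078, by the same exact test. Among regions with no promoter probe the share was 3.06% of members against 17.6% of others in aid-/- ES cells, 3.78% against 18.2% in mbd4-/-, 4.14% against 11.9% in the knockdown and 1.44% against 14.03% in wild type. In the tissues it was 4.86% to 6.13% of members against 18.8% to 20.9% of others. The mean difference there was −13.3 ± 2.34 points (SD, n = 8), below 0 on all 8 arrays, with p = 0.0078 by the exact permutation test. Whether these differences differ from each other was not tested. A region without a match can still hold a gene start that the RefSeq windows or the probes miss.

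**Figure D3:**
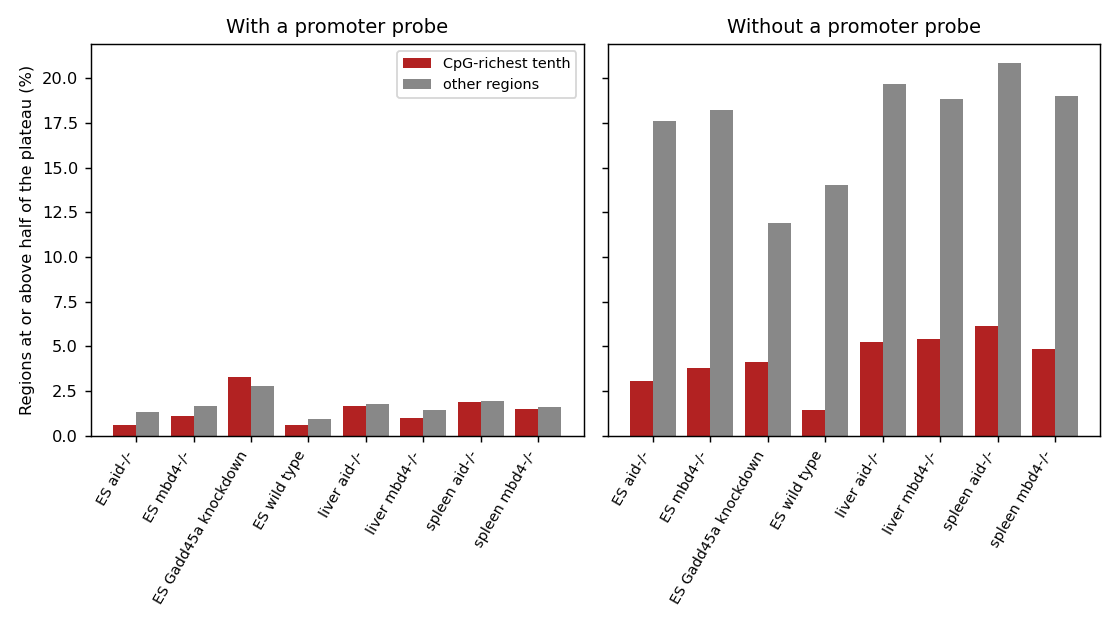
Share of regions at or above 50% of the plateau (vertical axis, %) on each array, in bars for the CpG-richest regions and the other regions, for regions with (left) and without (right) a probe in a RefSeq promoter window. The bars on the left stay at or under 3.29%, and on the right the CpG-richest regions stay at or under 6.13% while the others reach 11.9% to 20.9%.

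Most members, 1249 of 1345 (92.9%), were strongly bound on no array, against 10228 of the 12099 others (84.5%). Of the 96 that were on at least 1 array, 47 were so on 1 array alone, and for 37 of these that array was the Gadd45a knockdown. Only 6 members (0.446%) were strongly bound on all 8 arrays, against 503 others (4.16%). Without the Gadd45a array, 10 members were strongly bound on all the others. The 6 are Dazl, Tex12, Snrk, Begain, Vstm2l and a region without a gene name (chromosome 9, 79190155 to 79190707, 5 probes).

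Of these 6, Dazl and Tex12 are on the germline gene list. Dazl encodes an RNA-binding protein of germ cells (chromosome 17, 50431910 to 50433097, 9 probes). Its level was 4.52 in aid-/-, 4.65 in mbd4-/-, 3.59 in Gadd45a knockdown and 3.80 in wild-type ES cells and 2.02 in aid-/- and 3.90 in mbd4-/- liver and 1.90 in aid-/- and 3.51 in mbd4-/- spleen, the highest mean of all gene-named members (3.49). Tex12, a part of the central element of the synaptonemal complex (chromosome 9, 50369341 to 50369566, 3 probes), stood at 4.02 in aid-/-, 3.82 in mbd4-/-, 2.27 in Gadd45a knockdown and 2.77 in wild-type ES cells and at 1.95 in aid-/- and 3.17 in mbd4-/- liver and 2.40 in aid-/- and 2.95 in mbd4-/- spleen. All 3 of its probes lie in its promoter window. Ddx4, the germ cell RNA helicase also called Vasa (chromosome 13, 113442131 to 113442701, 5 probes), stood at 3.55 in aid-/-, 3.20 in mbd4-/-, 0.96 in Gadd45a knockdown and 2.17 in wild-type ES cells and at 2.25 in aid-/- and 3.61 in mbd4-/- liver and 2.26 in aid-/- and 3.59 in mbd4-/- spleen, so that the knockdown was the single array below 50% of the plateau.

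Both other germline members had lower means over the ES arrays than over the tissue arrays. The lowest ES arrays of both were the knockdown and wild type, genotypes that have no tissue array. Within aid-/-, Boll stood higher in ES cells than in liver or spleen, and within mbd4-/- it stood lower. Boll, a germ cell relative of Dazl (chromosome 1, 55419388 to 55420612, 8 probes), stood at 1.99 in aid-/-, 1.38 in mbd4-/-, −0.55 in Gadd45a knockdown and 0.62 in wild-type ES cells, against 1.87 in aid-/- and 2.35 in mbd4-/- liver and 1.79 in aid-/- and 2.69 in mbd4-/- spleen. Dmc1, the recombinase of meiosis (chromosome 15, 79435263 to 79435542, 3 probes), stood at 0.88 in aid-/-, 0.71 in mbd4-/-, −0.18 in Gadd45a knockdown and 0.13 in wild-type ES cells, against 1.34 in aid-/- and 1.83 in mbd4-/- liver and 1.43 in aid-/- and 2.02 in mbd4-/- spleen, and its ES and tissue arrays did not overlap. In all, 5 of the 25 regions of the germline list are members, where 10% of all regions are, all 5 hold a promoter probe, and all were strongly bound on at least 1 array. Their median mean level was 2.698, against −0.15 over all members and −0.11 over all regions.

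The promoter of Tex12 can be set beside that of Cdca5, which encodes sororin, a factor of sister chromatid cohesion. Both windows are from RefSeq (GRCm38), printed 5′ to 3′ along the gene with CG in capitals.
Tex12 promoter window: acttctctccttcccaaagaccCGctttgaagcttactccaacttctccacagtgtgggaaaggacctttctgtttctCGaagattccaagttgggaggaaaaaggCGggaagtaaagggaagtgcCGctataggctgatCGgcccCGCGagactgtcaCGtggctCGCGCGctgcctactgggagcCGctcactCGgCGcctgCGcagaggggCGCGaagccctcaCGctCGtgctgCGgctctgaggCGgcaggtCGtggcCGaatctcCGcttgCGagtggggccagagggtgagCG
Cdca5 promoter window: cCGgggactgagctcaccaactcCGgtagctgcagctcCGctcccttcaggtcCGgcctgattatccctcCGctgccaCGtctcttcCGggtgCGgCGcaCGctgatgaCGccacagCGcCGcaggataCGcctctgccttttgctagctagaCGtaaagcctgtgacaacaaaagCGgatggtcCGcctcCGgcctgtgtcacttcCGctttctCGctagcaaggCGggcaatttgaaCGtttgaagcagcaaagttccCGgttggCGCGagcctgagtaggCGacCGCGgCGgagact
The Tex12 window (chr9:50561219-50561518, minus strand) holds 26 CG and the Cdca5 window (chr19:6084847-6085146, plus strand) 29, against a median of 7 over 32851 RefSeq windows. The letters CGCG occur 4 times in the Tex12 window and 2 times in the Cdca5 window, and in 38.0% of all windows. Neither holds the GC box, which 35.7% of all windows hold on either strand. As many CG as in the Tex12 window, or more, occur in 16.9% of all windows, and for Cdca5 in 12.9%. Of the 5 probes of the Cdca5 region, 2 lie in the printed window. Cdca5 was weakly bound on every array (chromosome 19, 6084791 to 6085337, 5 probes): −1.83 in aid-/-, −1.63 in mbd4-/-, −1.48 in Gadd45a knockdown and −1.97 in wild-type ES cells, and −0.71 in aid-/- and −0.85 in mbd4-/- liver and −0.74 in aid-/- and −0.97 in mbd4-/- spleen.

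Pik3r4, Snrk and Begain had high means with no probe in a promoter window. Pik3r4, a regulatory subunit of class III phosphoinositide 3-kinase (chromosome 9, 105546867 to 105547210, 3 probes), stood at 4.65 in aid-/-, 4.16 in mbd4-/-, 0.90 in Gadd45a knockdown and 3.53 in wild-type ES cells and at 2.64 in aid-/- and 4.55 in mbd4-/- liver and 2.72 in aid-/- and 3.90 in mbd4-/- spleen. Snrk, a kinase related to yeast SNF1 (chromosome 9, 122075655 to 122076150, 4 probes), stood at 4.72 in aid-/-, 4.03 in mbd4-/-, 1.50 in Gadd45a knockdown and 3.102 in wild-type ES cells, and at 2.32 to 4.46 in the tissues. Pik3r4 and Snrk had the same order of ES lines, with the knockdown lowest.

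Naa11, an intronless relative of the N-terminal acetyltransferase gene Naa10, has 2 of its 4 probes in its promoter window. It stood at 4.23 in aid-/-, 3.15 in mbd4-/-, 1.34 in Gadd45a knockdown and 3.30 in wild-type ES cells and at 2.18 in aid-/- and 4.05 in mbd4-/- liver and 2.34 in aid-/- and 3.55 in mbd4-/- spleen. Begain, which encodes a brain protein that binds guanylate kinase domains (chromosome 12, 110271448 to 110272557, 10 probes), ranged from 1.49 in the Gadd45a knockdown to 3.78 in mbd4-/- ES cells. Among the other high means, Shroom3, Odz3, Cux1 and Arhgap23 were lower in wild-type ES cells than on any of the 4 tissue arrays. Those tissue arrays are all aid-/- or mbd4-/-. In ES cells, too, each of these regions was higher in aid-/- and in mbd4-/- than in wild type.

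The 8 lowest mean levels belonged to Usp5 and Ubb (a deubiquitinase and a ubiquitin gene), Clpp (a mitochondrial protease), Slc35e1 (a solute carrier), Tbl1xr1 (a corepressor subunit), Rpe (an enzyme of the pentose phosphate pathway), and Aurkb and Cdca5 (both of mitosis). Ubb (chromosome 11, 62364305 to 62365335, 9 probes, 5 of them in a promoter window) stood at −1.29 in aid-/-, −1.82 in mbd4-/-, −1.56 in Gadd45a knockdown and −2.34 in wild-type ES cells, and at −0.996 in aid-/- and −1.49 in mbd4-/- liver and −1.45 in aid-/- and −1.52 in mbd4-/- spleen. Usp5 (chromosome 6, 124779297 to 124779662, 3 probes) stood at −2.42 in aid-/-, −2.43 in mbd4-/-, −1.92 in Gadd45a knockdown and −2.03 in wild-type ES cells, and at −0.73 in aid-/- and −1.19 in mbd4-/- liver and −1.26 in aid-/- and −0.66 in mbd4-/- spleen, and Aurkb (chromosome 11, 68859134 to 68859680, 5 probes) at −1.73 to −2.16 in ES cells and −0.41 to −1.04 in tissues. For Usp5 and this Aurkb region the ES arrays all lay below the tissue arrays. In aid-/- and in mbd4-/- ES cells only 3 of the 5 probes of this Aurkb region had bound signal above background. The low end of all members also lay lower on the ES arrays. Their 10th percentile was −1.25 to −0.74 there and −0.72 to −0.57 in tissues. Whether the differences at Usp5 and Aurkb go beyond that was not tested. Another member at Aurkb (chromosome 11, 68853469 to 68853860, 5 probes) had ES and tissue arrays that overlapped. It stood at −0.89 in aid-/-, −0.85 in mbd4-/-, −0.19 in Gadd45a knockdown and −1.21 in wild-type ES cells. Its tissue levels were −0.66 in aid-/- and −0.64 in mbd4-/- liver and −0.25 in aid-/- and −0.68 in mbd4-/- spleen. For Ubb the ES and tissue arrays overlapped.

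**Figure D4:**
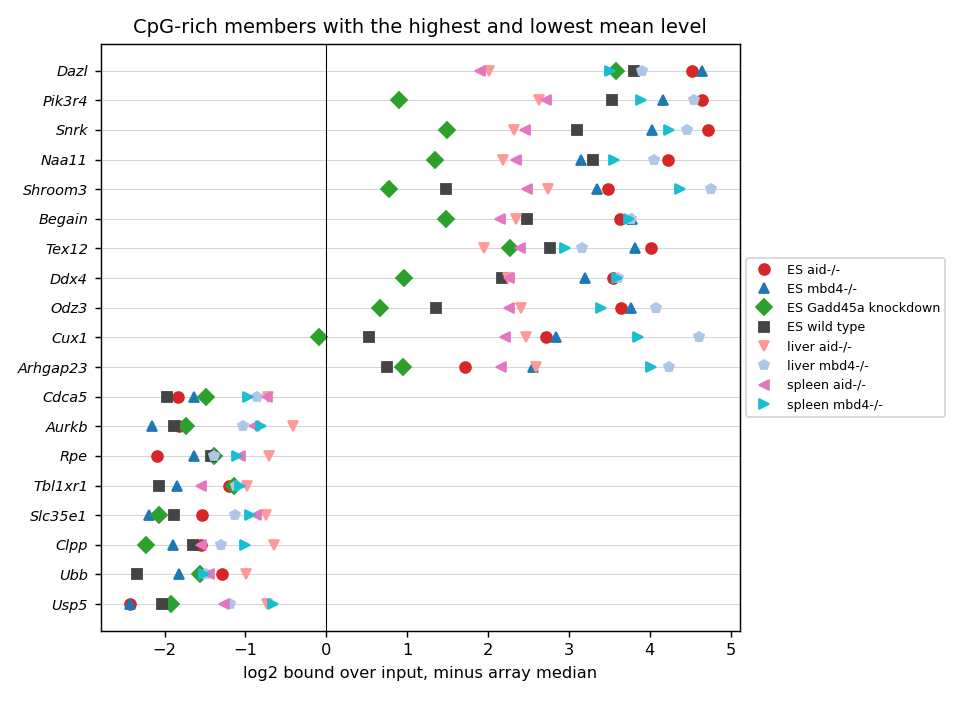
Levels on each of the 8 arrays (horizontal axis, log2 bound over input minus the array's median) of 11 of the 12 gene-named members with the highest mean and the 8 with the lowest. Each point is 1 array. All 8 points of the low members lie below 0, and the Gadd45a knockdown is the lowest point in 8 of the 11 high members shown.

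The steadiest gene-named member, Edc3, lay above the array median on every array. The SD over the 8 arrays was 0.08 for Edc3, a decapping factor (levels 0.37 to 0.60), and 0.09 for both Tmem222 and 1700047I17Rik2, against a median of 0.35 over members and 0.38 over other regions. The least steady gene-named members were Zfp46 (SD 1.74), Grb10 (1.71), Cux1 (1.56), Atp2b2 (1.55), Rbmxl2 (1.53) and Sh2d3c (1.50). A region of 15 probes without a gene symbol (chromosome 17, 39981533 to 39983633) also varied widely, from −1.45 in the Gadd45a knockdown to 3.56 in mbd4-/- spleen.

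Gene lists gave the following pattern, with each count read against the 10% of regions that are members. Of 461 regions of polycomb-bound developmental regulators, 18 (3.90%) are members. Their median mean level was −0.03. Tal1 alone was strongly bound on any array (1.52 in the Gadd45a knockdown against 0.19 in wild type), and Barhl1 had the highest mean (1.09). The lowest of them were Sox1 (mean −0.73) and Neurod2 (−0.67). Among 316 zinc finger regions 27 (8.54%) are members with a median of 0.08, led by Zfp46 (2.07) and Zfp316 (1.40). Among 196 ion channel and receptor regions, chosen by symbol prefix, 25 (12.8%) are members with a median of 0.20, led by the sodium channel Scn8a (1.81). Grid2ip (1.41, a protein that binds a glutamate receptor) and Htra1 (−0.23, a protease) entered that list by their symbols alone.

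The 4 housekeeping members of 42 regions had a median of −0.47, from −1.56 (Ubb) to 0.21 (Mcm2), and the 2 ribosomal protein members of 48 regions, Rpl34 and Rps10, means of −0.59 and −0.24; none of the 6 was strongly bound on any array, as 92.9% of all members were not. Of 174 regions of ubiquitin enzymes, F-box proteins and proteasome subunits, 22 (12.6%) are members with a median of −0.23, of which Fbxo46 (1.92) and Usp35 (1.54) were strongly bound on some arrays. The 8 members of 87 regions of Wnt, Fgf and Bmp genes ran from −0.61 (Wnt5b) to 0.09 (Wnt10b). Of the 42 imprinted regions 3 are members, with a median of 1.11: Grb10 (2.29) and Peg12 (1.11) were strongly bound on some arrays and H13 (−0.27) on none. The blood and immune list (28 regions) gave Zap70 (1.51), Runx3 (0.78) and Tal1 (0.22). The pluripotency list (28 regions) gave Klf5 (−0.06) and the methylation machinery list (33 regions) Usp7 (−0.88). No region of the protocadherin (23), histone (24), fibroblast (15) or liver (4) lists is a member. The arrays hold DNA and no RNA, so the labelled tissues could not be checked by marker expression.

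The first comparison of the study sets aid-/- against wild-type ES cells. With 1 array each there is no test, and a region was listed when its level differed by at least 1 and no fewer than 75% of its probes pointed the same way. Members higher in aid-/- numbered 28 (2.08%, against 8.46% of all 13444 regions), and members lower in aid-/- numbered 77 (5.72%, against 2.33%). The median difference was −0.19 over members and 0.11 over other regions. That balance moved with the processing: with the GC correction 39 members were higher and 32 lower, on the deposited scale 74 and 24, and after normexp background correction 11 and 1.

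Members higher in aid-/- were led by Grb10, an imprinted gene for a growth factor receptor adaptor (chromosome 11, 11925467 to 11926345, 10 probes). It stood at 4.03 ± 0.78 in aid-/- and −0.29 ± 0.77 in wild-type ES cells (SD over 10 probes), a difference of 4.32. Next came Atp2b2, a plasma membrane calcium pump (1.73 ± 0.22 against −0.60 ± 0.19, SD over 4 probes, difference 2.33). Odz3, a teneurin, differed by 2.29 (3.64 against 1.36), Cux1, a homeobox factor, by 2.20 (2.72 against 0.52), and Shroom3, an actin regulator, by 2.01 (3.49 against 1.48). Zfp46 (1.89), Ptrf (1.83), a caveola protein, and Snrk (1.62) followed. None of these 8 regions has a promoter probe. Of the gene lists, 3 of 5 germline members were higher (Boll by 1.38, Ddx4 by 1.38 and Tex12 by 1.25), 2 of 25 ion channel members (Scn8a by 1.13 and Kcnj9 by 1.05), and 1 of 4 housekeeping members (Ubb by 1.05), beside Grb10 and Zfp46.

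Of members lower in aid-/-, Rdbp, a subunit of the negative elongation factor (chromosome 17, 34987166 to 34987677, 4 probes), has no measured size of difference. None of its 4 probes had aid-/- bound signal above background. With those signals raised to the lowest one called above background on that array, wild type was 2.06-fold higher. With normexp background correction the difference was only −0.29 on the log2 scale, so 2.06-fold is no lower limit. Among lower members with some probe above background in aid-/-, Map4k2, a kinase, differed most, by −2.09 (−1.92 ± 1.28 against 0.17 ± 0.97, SD over 4 probes). Fndc3b (−2.07), Cacna2d1 (−1.80, a calcium channel subunit), Ireb2 (−1.74, an iron regulatory protein), Zbtb2 (−1.62) and Csnk1e (−1.57) followed. Ireb2 lay 0.26 higher in aid-/- on the deposited scale. At Cacna2d1 only 2 of 5 probes had aid-/- bound signal above background. With normexp background correction the differences of the regions from Map4k2 to Csnk1e were smaller, from −1.02 (Map4k2) to −0.36 (Zbtb2). These regions lay near the array median in wild type (0.11 to 0.40, with Rdbp at −0.06).

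In mbd4-/- against wild-type ES cells, 70 members were higher (5.204%, against 8.52% of all regions) and 29 lower (2.16%, against 2.71%). The median difference was 0.14 over members and 0.05 over other regions. Grb10 again led (4.44 ± 0.47 in mbd4-/- and −0.29 ± 0.77 in wild type, SD over 10 probes, difference 4.73). Mmp28, a matrix metalloproteinase (chromosome 11, 83258360 to 83258668, 3 probes), stood at 2.14 against −0.39. Odz3 (2.41), Cux1 (2.31), Atp2b2 (2.28), Ptrf (1.98), Shroom3 (1.87) and Vezf1 (1.87, a zinc finger factor) followed. Among lower members Fndc3b differed by −2.19 (−1.89 ± 1.92 against 0.30 ± 0.73, SD over 4 probes) and Rdbp by −1.77. Other large differences were those of 1810055G02Rik (−1.75), the cell cycle factor E2f1 (−1.61), Hnrnpab (−1.44), the pyrophosphatase Ppa1 (−1.37) and Wnt11 (−1.35). At 1810055G02Rik only 3 of 7 probes had mbd4-/- bound signal above background. With normexp background correction the differences of the lower members named here were smaller, from −0.79 (Fndc3b) to −0.35 (Rdbp). That setting listed 10 members as higher and 0 as lower. On the deposited scale E2f1 and Ppa1 turned, with mbd4-/- higher by 0.57 and 0.24.

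All 3 comparisons of ES lines share the wild-type array, so a value particular to that array enters each of them. At Grb10 and Fndc3b the knockdown lay near wild type, while aid-/- and mbd4-/- lay apart from both. Grb10 stood at 4.03 in aid-/-, 4.44 in mbd4-/-, 0.24 in Gadd45a knockdown and −0.29 in wild-type ES cells. Fndc3b stood at −1.78 in aid-/-, −1.89 in mbd4-/-, 0.23 in Gadd45a knockdown and 0.30 in wild-type ES cells.

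In the Gadd45a knockdown against wild-type ES cells, more members were listed as higher than as lower. Listed as higher were 115 (8.55%, against 6.43% of all regions) and as lower 19 (1.41%, against 6.56%). The median difference was 0.33 over members and 0.08 over other regions. The knockdown array also had the steepest relation of log ratio to GC content (0.45 given above), and with the GC correction 60 members were higher and 31 lower. Naa40, an acetyltransferase of histone tails (chromosome 19, 7315635 to 7315974, 3 probes), had a level of 0.03 ± 0.73 in knockdown cells, against −2.61 ± 0.97 in wild type (SD over 3 probes), so that the higher of these levels was still near the array median. Ttll4, a tubulin-modifying ligase, stood at 2.18 ± 0.46 against 0.06 ± 0.56 (SD over 6 probes) and was strongly bound on that array alone. Vezf1 (2.40), Snrnp35 (2.05, a splicing factor), Mobkl3 (1.98), the synaptic scaffold Magi2 (1.93), Wdr73 (1.93) and the DNA repair enzyme Tdp1 (1.89) followed.

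Several members lower in the knockdown were strongly bound on most other arrays. Pik3r4 differed by −2.63 (0.90 ± 0.70 against 3.53 ± 0.43, SD over 3 probes), Naa11 by −1.95, and Snrk by −1.604. Cilp2, a cartilage protein (chromosome 8, 72404702 to 72407303, 18 probes), had a level of −0.04 ± 1.31 in knockdown cells, against 2.50 ± 0.56 in wild type (SD over probes), a difference of −2.54. Cdh22 (−1.53), Hapln4 (−1.48) and Cd109 (−1.33) were also listed, as were 2 of the 5 germline members, Ddx4 (−1.21) and Boll (−1.17).

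ES cells were next set against liver and spleen, the 4 arrays of each side standing in as replicates although their genotypes differ. By limma over all 13444 regions no member passed an adjusted p of 0.05, where 0.0669% of all regions were higher and 0.149% lower in ES cells. At an unadjusted p of 0.05, 42 members were higher (3.12%, against 5.82% of all regions) and 93 lower (6.91%, against 9.36%). The smallest adjusted p of a member was 0.0675 (limma). Without the Gadd45a array 2 members were called higher (0.149%, against 0.855% of all regions) and 4 lower (0.297%, against 0.379%), and without aid-/- liver 0 were called higher (against 0.0149%) and 1 lower (0.0743%, against 0.0521%). With genotype as a block, 28 members were called higher (2.08%, against 7.53% of all regions) and 75 lower (5.58%, against 6.4%) by limma at an adjusted p of 0.05. That fit rests on aid-/- and mbd4-/-, since the other 2 genotypes have no tissue array. The difference of member and other medians was 0.019 larger in ES cells than in tissues, with p = 0.914 by a two-sided exact permutation test (4 against 4 arrays, smallest possible p 0.0286). With the GC correction it turned to −0.098 (p = 0.0286, exact permutation).

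Some members still had ES and tissue arrays that did not overlap and means at least 1 apart, a rule added after the values were seen. In 16 members (1.19%, against 1.76% of all regions) the 4 ES arrays lay below the 4 tissue arrays, and in 4 members (0.297%, against 1.13%) above them. Lower in ES cells was Sh2d3c, an SH2 domain adaptor (chromosome 2, 32596973 to 32597411, 5 probes), at −0.61 in aid-/-, −0.77 in mbd4-/-, 0.40 in Gadd45a knockdown and 0.27 in wild-type ES cells, against 1.35 in aid-/- and 2.12 in mbd4-/- liver and 2.04 in aid-/- and 3.61 in mbd4-/- spleen. Snx20, a sorting nexin (chromosome 8, 91150963 to 91151774, 6 probes), stood at 0.22 in aid-/-, 1.29 in mbd4-/-, 0.60 in Gadd45a knockdown and 0.47 in wild-type ES cells, against 1.71 in aid-/- and 3.15 in mbd4-/- liver and 2.22 in aid-/- and 3.88 in mbd4-/- spleen. Zfp46 had the largest difference of means (−2.60), at 0.76 ± 1.18 in ES cells and 3.37 ± 1.09 in tissues (SD, n = 4 arrays each). With genotype as a block the adjusted p by limma was 0.0104 for Sh2d3c, 0.00804 for Snx20 and 0.0721 for Zfp46.

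Others of this set were Rbmxl2, a testis gene for an RNA-binding protein (−2.23), Ccdc102a (−2.03), Agap3 (−1.81), the sodium channel Scn8a (−1.78), the synaptic scaffold Shank3 (−1.61), the ephrin receptor Epha2 (−1.39) and Dmc1 (−1.27). Higher in ES cells were Ccdc42b, at 3.11 in aid-/-, 2.97 in mbd4-/-, 1.73 in Gadd45a knockdown and 2.12 in wild-type ES cells, against 0.98 in aid-/- and 1.65 in mbd4-/- liver and 0.91 in aid-/- and 0.85 in mbd4-/- spleen, then Prpf39 (1.17, a splicing factor), Nhlrc1 (1.14, a ubiquitin ligase) and the region at BC048602 (1.11). Strongly bound on all 4 tissue arrays and on no ES array were 11 members (0.818%, against 0.711% of other regions), among them Zap70, a T cell kinase (1.33 in aid-/-, 1.80 in mbd4-/-, −0.60 in Gadd45a knockdown and 0.62 in wild-type ES cells, and 1.42 in aid-/- and 2.25 in mbd4-/- liver and 1.97 in aid-/- and 3.24 in mbd4-/- spleen). The limit differed between arrays, at 2.15 in mbd4-/- ES cells and 1.11 in aid-/- liver. The Zap70 levels of ES cells and tissues overlapped.

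**Figure D5:**
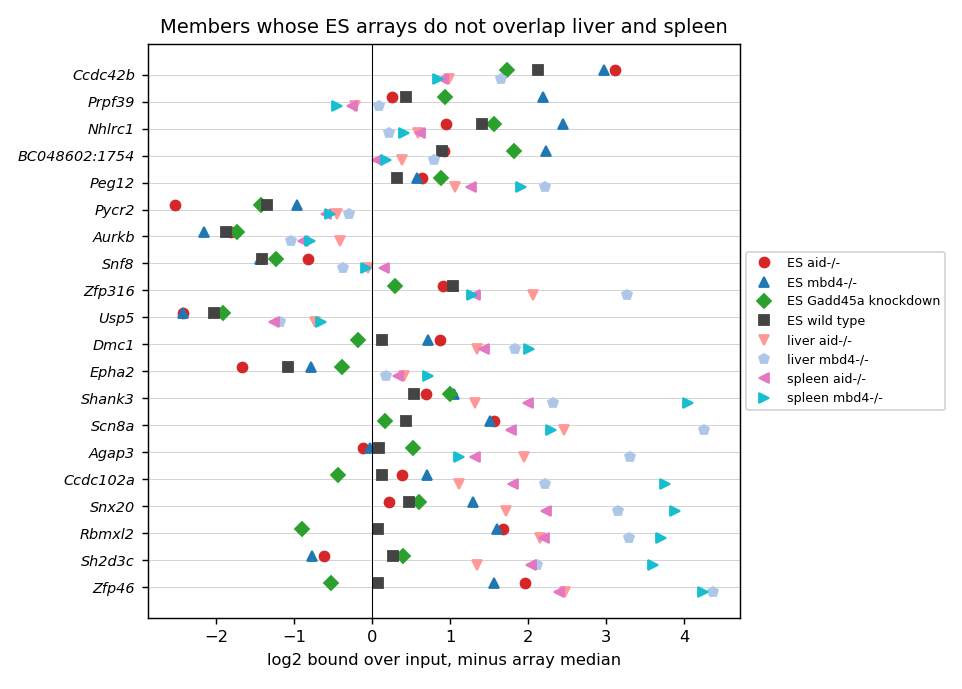
Levels (horizontal axis, log2 bound over input minus the array's median) of the 20 members whose 4 ES arrays (upper points of each row) do not overlap the 4 liver and spleen arrays (lower points) and whose means differ by at least 1. In 4 rows ES cells lie higher and in 16 rows lower, and the spread within each side is often above 1.

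Liver and spleen differed at few members. No member passed an adjusted p of 0.05 by limma, as in 0% of all regions in either direction. At an unadjusted p of 0.05, 4 members were higher in liver (0.297%, against 0.744% of all regions) and 0 lower (against 0.521%). In 4 members (0.297%, against 0.818%) liver lay above spleen in both genotypes with a mean difference of at least 1: Phldb3, Agap3, Zfp316 and Scn8a. Agap3, an Arf GTPase activator (chromosome 5, 23980086 to 23981092, 8 probes), stood at 1.95 and 3.31 in aid-/- and mbd4-/- liver, against 1.32 and 1.12 in spleen. Zfp316, with 20 probes, stood at 2.07 and 3.27 in liver, against 1.32 and 1.28 in spleen. In 3 members (0.223%, against 0.595%) liver lay below spleen: Shank3, Ccdc102a and Sh2d3c. Shank3 stood at 1.32 and 2.33 in liver, against 2.00 and 4.05 in spleen.

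The last comparison, aid-/- against mbd4-/- within ES cells, liver and spleen, carries scan day with it. No member passed an adjusted p of 0.05 by limma, as in 0% of all regions in either direction. At an unadjusted p of 0.05, 22 members were higher in aid-/- (1.64%, against 8.78% of all regions) and 188 lower (13.98%, against 8.9%). Without ES aid-/- or without ES mbd4-/-, which leaves the liver and spleen pairs, 14 members were called higher (1.04%, against 4.57% of all regions) and 50 lower (3.72%, against 9.37%). A region's own spread in that fit rests only on how far the liver and spleen differences disagree. The mbd4-/- arrays of liver and spleen also share a slide and a scan day, so these pairs are not independent of each other. The member minus other median was lower in aid-/- in each tissue, by −0.39 in ES cells, −0.27 in liver and −0.16 in spleen. The mean of −0.274 ± 0.112 (SD, n = 3 pairs) gave p = 0.25 by a two-sided exact permutation test, the smallest that 3 pairs allow. With the GC correction it was −0.036. In 10 members (0.743%, against 1.9% of all regions) aid-/- lay below mbd4-/- in all 3 pairs with a mean difference of at least 1, and in 0 above (against 1.09%). Arhgap23 had the largest (−1.45), followed by Snx20, Cux1 and Dazl. These are regions of high level, and the plateaus of the liver and spleen arrays given above were lower in aid-/- than in mbd4-/-.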

How the data were processed

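Mouse genomic DNA was measured on 8 two-channel Agilent arrays, with input DNA in Cy3 and antibody-bound DNA in Cy5 on every array, so that a dye effect cannot be told apart from binding. Per the file headers, the deposited intensity values were made with Agilent Feature Extraction 10.7.3.1 (2 ES arrays, mbd4-/- and the Gadd45a knockdown, with spatial detrending) or 10.9.1.1 (6 arrays), by background subtraction and 1 linear dye factor per channel, on probes placed in mm9. The deposited log10 ratio, per the file headers Cy5 over Cy3, served only to check the direction. The authors also deposited a value table, used here as an alternative: its values are a score with mean 0 and SD near 1 per array, with no log base, scale or steps stated.

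From the 94687 spots, 5950 controls and 132 probes flagged as outliers were left out. The log2 ratio of the deposited processed signals was centred on each array's median, with no loess, and averaged over each region's probes. Probe sequences came from the 2 files that hold them. limma 3.58.1 (R 4.3.3) was fitted over all 13444 regions with Benjamini-Hochberg adjustment. Differences of single values per array were tested with exact permutation tests, two-sided (SciPy 1.17.1). The scripts were tested on simulated data.

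The ES lines, 1 array each, were compared without a test, by a difference of at least 1 and at least 75% of probes in that direction. Arrays of different genotype stood in as replicates of a tissue, so p-values measure the spread between such arrays. The members and the gene lists were chosen with earlier results of these data known. Named are the 5 members with the most CG per base, the 3 regions on each side of the limit, the 12 highest and 8 lowest gene-named means, up to 8 listed members per direction and ES line, the 6 largest and 3 smallest SDs, and members of each gene list; those named for arrays that do not overlap or for the same direction in every pair follow rules added after the values were seen. Alternatives were normexp background correction (on median signals, offset 50, since not all files hold mean signals), the deposited value table, a common plateau, a correction for probe GC content, leaving out probes with dim input, the highest 5% by CG, 5 or more probes, blocks for genotype, slide and scan day, and leaving out each array. Promoter sequences are from RefSeq (GRCm38) and were matched to probes by sequence; exons and introns were not used here. A few named regions are not reported here.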

Additional observations from a re-analysis of the deposited data

Results flagged for a closer look

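The member region at Naa11 differed between aid-/- and mbd4-/- in opposite directions. The aid-/- array lay above the mbd4-/- array by 1.07 in ES cells, while the difference was −1.87 in liver and −1.21 in spleen. The difference between the tissues was not tested, since each rests on 1 array a group.

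At 3 named members, 1 of the 4 liver and spleen arrays stood far from the other 3. Ccdc42b stood at 1.65 in mbd4-/- liver, Ppa1 at −0.41 in aid-/- liver and Ubb at −0.996 in aid-/- liver. In all, 150 sets of 4 arrays were looked at over 73 named regions and 3 stood out, where chance alone marks about 1 in 20.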

How the results depend on the processing

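Of 233 alternative values of the main results, 175 kept their direction and their side of the threshold or, for counts, stayed within 1.5 times; the cause of the other changes was not tested. The difference in share strongly bound kept its sign and its p of 0.0078 by the exact permutation test in all 7 other settings (−6.78 to −2.87 points). Without each array it was −6.99 to −6.43, with p = 0.0156, the smallest that 7 arrays can give in the exact permutation test. Without a promoter probe it was −14.1 to −13.1 without each array; with one, −0.332 to −0.157, and −0.423 with the GC correction. The median difference between members and others was −0.104 on the deposited scale, −0.170 with the GC correction, 0.0086 with 5 or more probes and −0.072 to −0.0039 without each array. Its shift between ES cells and tissues turned to −0.025 on the deposited scale and −0.098 with the GC correction, and ran from −0.043 to 0.117 without each array, below 0 without ES mbd4-/-, the Gadd45a knockdown, aid-/- liver or aid-/- spleen.

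For ES cells against tissues, limma called 1 member higher and 22 lower with a common plateau, 0 and 27 on the deposited scale, 0 and 3 with the GC correction or the slide as a random block, 1 and 1 with scan day as a block, 28 and 75 with genotype as a block, and 0 to 2 and 0 to 4 without each array. For aid-/- against mbd4-/- it called 1 lower with a common plateau, and 0 to 14 higher and 0 to 50 lower without each array. For liver against spleen it called 1 higher on the deposited scale. The members whose arrays do not overlap numbered 0 higher with normexp, 2 higher and 35 lower on the deposited scale, 1 and 27 with a common plateau, and 2 higher with the GC correction. Members strongly bound on all arrays numbered 3 with normexp and 6 to 10 without each array.

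Lists of ES lines against wild type moved most. For aid-/- there were 11 higher and 1 lower with normexp, 74 and 24 on the deposited scale, 16 and 23 with a common plateau, 32 lower with the GC correction, and 10 and 9 at a difference of 1.5. For mbd4-/- there were 10 and 0 with normexp, 39 and 8 with a common plateau, and 16 and 4 at 1.5. For the Gadd45a knockdown there were 21 higher with normexp, 62 lower on the deposited scale, 60 and 31 with the GC correction, and 24 and 7 at 1.5. Of 404 alternative values of named regions 401 kept their sign, though not always their size. With normexp Cacna2d1 went from −1.80 to −0.53 (aid-/- minus wild type) and Rdbp from −1.77 to −0.35 (mbd4-/- minus wild type). On the deposited scale Zbtb2 went from −1.62 to −0.23 (aid-/- minus wild type). Others stayed large, as Grb10 with normexp at 3.51 (aid-/-) and 3.29 (mbd4-/-). On the deposited scale Ireb2 turned to 0.256 (aid-/- minus wild type), and E2f1 to 0.574 and Ppa1 to 0.243 (mbd4-/- minus wild type). The slide block for aid-/- against mbd4-/- could not be fitted, and the scan-day block was not run there because day and genotype coincide. No analysis paired by replicate number was possible because each group holds 1 array and the labels give no such numbers; the aid-/- and mbd4-/- arrays were paired by tissue.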
